A study of Arabidopsis thaliana with 9 samples.

Results

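Among the genes of etiolated Arabidopsis thaliana seedlings, 215 had a steady state mRNA level at least 2-fold higher after 1 h of red light than in darkness. These genes differed from darkness by less than 2-fold in seedlings kept in white light, on the scale given next. They were chosen on the measured values themselves: with L = log2(pseudo-count + 1), the level after 1 h of red light (R1h) exceeded that of true dark-grown seedlings (D) by at least 1, and the level in continuous white light (WLc) differed from D by less than 1. A value of at least 10 in 1 or more groups was also required, which 17299 of the 17680 genes in the table passed. The 215 members are 1.24% of those genes. Both differences from D therefore describe how the members were selected, and no test is attached to them. With a value of at least 10 in D itself, 184 members were left. Members below 10 in both D and WLc passed the minimum only through R1h. For them, being tested and being a member rest on the same value.

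All seedlings were wild type Columbia-0 and 2 days old, with no mutation or transgene, and whole seedlings were taken. D seedlings grew in true darkness: after stratification, white light set off germination and a far-red pulse then returned active phytochrome to its inactive form. R1h seedlings had the same start, then 47 h of darkness and red light of 10 µE m-2 s-1 for 1 h. WLc seedlings received continuous white light of 100 µE m-2 s-1 over the 2 days, so that duration, colour and intensity of the light differ together between R1h and WLc and cannot be told apart. Each group had 3 libraries of 3′-end RNA-seq, and the table gives 1 mean per group as pseudo-counts, that is, counts of reads brought to the same library size. No spread between libraries and no p-value can be given, and every level below is the authors' mean. In whole seedlings, more RNA per cell and more cells of a type cannot be told apart.

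Phytochromes are red light receptors that enter the nucleus on activation and trigger the destruction of the Phytochrome Interacting Factors (PIFs), bHLH factors that maintain growth in the dark. Light also relieves bZIP factors such as HY5 from the ubiquitin ligase built on COP1. PIFs bind the G-box and the related PBE-box, and HY5 binds sequences built around the letters ACGT. De-etiolation that follows slows hypocotyl growth, opens the cotyledons and builds chloroplasts, and it exposes new pigment to light before the photosynthetic apparatus is complete.

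The letters that the members' promoters share more often than those of other genes are shown first. The window searched ran from 250 bases before to 50 bases after the annotated gene start in the TAIR10.1 genome with RefSeq gene models, on both strands. The stretches below, 120 bases each and read 5′ to 3′ in the direction of the gene, lie before the start. They are those of the members that hold a G-box (CACGTG) or the ACE core (GACGTG), on either strand, there among the 15 with the largest R1h minus D and an R1h level of at least 50. ELIP2 is shown as the relative of ELIP1, and GBF3 because it encodes a factor named for binding the G-box. Capitals mark these motifs.
ELIP1: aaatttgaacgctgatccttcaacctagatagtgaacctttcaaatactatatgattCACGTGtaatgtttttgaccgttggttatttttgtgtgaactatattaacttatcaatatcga
ELIP2: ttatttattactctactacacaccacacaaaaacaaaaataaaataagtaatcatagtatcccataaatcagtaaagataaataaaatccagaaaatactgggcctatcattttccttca
ABCI21: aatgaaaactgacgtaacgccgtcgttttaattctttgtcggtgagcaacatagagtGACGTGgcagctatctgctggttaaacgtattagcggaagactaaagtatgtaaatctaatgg
AT3G30460: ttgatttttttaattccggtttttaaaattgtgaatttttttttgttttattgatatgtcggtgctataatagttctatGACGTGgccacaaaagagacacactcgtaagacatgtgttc
SMZ: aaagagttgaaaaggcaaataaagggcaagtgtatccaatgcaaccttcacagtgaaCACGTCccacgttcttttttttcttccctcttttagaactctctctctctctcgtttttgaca
AIF1: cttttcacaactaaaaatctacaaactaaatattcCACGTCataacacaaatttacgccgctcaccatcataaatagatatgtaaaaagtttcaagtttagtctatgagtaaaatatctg
GBF3: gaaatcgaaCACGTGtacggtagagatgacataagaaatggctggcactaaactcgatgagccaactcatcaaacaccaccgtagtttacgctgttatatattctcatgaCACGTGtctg

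The ELIP1 stretch is chr3:8085673-8085792 on the minus strand, and its G-box begins 66 bases before the gene start. ELIP2 (chr4:8418122-8418241, plus strand) holds neither motif before its start, although it was among the 3 members with the largest R1h minus D. ABCI21 (chr5:17755827-17755946, minus strand), AT3G30460 (chr3:12104192-12104311, plus strand), SMZ (chr3:20376604-20376723, minus strand) and AIF1 (chr3:1726901-1727020, plus strand) each hold 1 ACE core there. GBF3 (chr2:19000060-19000179, plus strand) holds 2 G-boxes in the stretch shown. The authors aligned their reads to TAIR9 transcripts and gave no coordinates, so these positions come from the annotation alone. A match of letters is a description and not a bound site.

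Over the 214 protein-coding members, 32 (15%) held a G-box in the window, against 9.23% of all tested genes. The ACE core was found in 33 members (15.4%) against 7.64%, and 60 members (28.0%) held at least 1 of these motifs, against 15.6% of tested genes and 13.6% of all protein-coding promoters of the genome. No G-box shared bases with an ACE core in a member's window. The 428 genes that were at least 2-fold higher in R1h and in WLc gave 28.9%, about the share of the members. Members with an R1h minus D of 2 or more held a G-box in 5 of 53 windows (9.43%), and the others in 27 of 161 (16.8%).

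For the other motifs the shares differed less or were lower in the members. The PBE-box (CACATG) stood in 15.9% of members and 13.0% of tested genes, the W-box (TTGACC) in 15.9% and 14.3%, and the auxin response element (TGTCTC) in 18.7% and 13.6%. The I-box (GATAAG) was found in 11.7% of members, 15.3% of tested genes and 19.9% of the genes higher in both lights. The telo-box (AAACCCTA), found before genes of ribosome production, stood in 3 members (1.4%) against 5.37%, and site II (TGGGCC), which TCP factors bind, in 25 (11.7%) against 19.4%. The evening element (AAAATATCT) was found in 4.21% of members and 3.08% of tested genes, the CCA1 site (AAAAATCT) in 7.94% and 8.31%, the heat shock element (GAANNTTC) in 11.7% and 10.9%, the GCC-box (GCCGCC) in 2.80% and 2.56%, the DRE core (CCGAC) in 39 members and 16.3% of tested genes, and the CAMTA box (ACGCGT) in 2.34% and 2.28%.

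The members had few exons. A single exon made up the gene model of 65 of them (30.4%), against 21.1% of the genes higher in both lights and 14.3% of all tested genes. Models of up to 2 exons made up 51.9%, against 35.4% and 28.5%. Their median exon number was 2, against 4 and 5, while the median transcript length of 1567 bases was close to 1624 and 1738. Expression level also differed between these sets. The medians in D were 79.1 for the members, 27.7 for the genes higher in both lights and 116 for all tested genes. The part of expression level in these shares was not tested. The 30 genes higher in R1h and lower in WLc had shares like the members, 33.3% with 1 exon and 53.3% with up to 2. Their median exon number was also 2, so that few exons are not particular to the members.

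**Figure D1:**
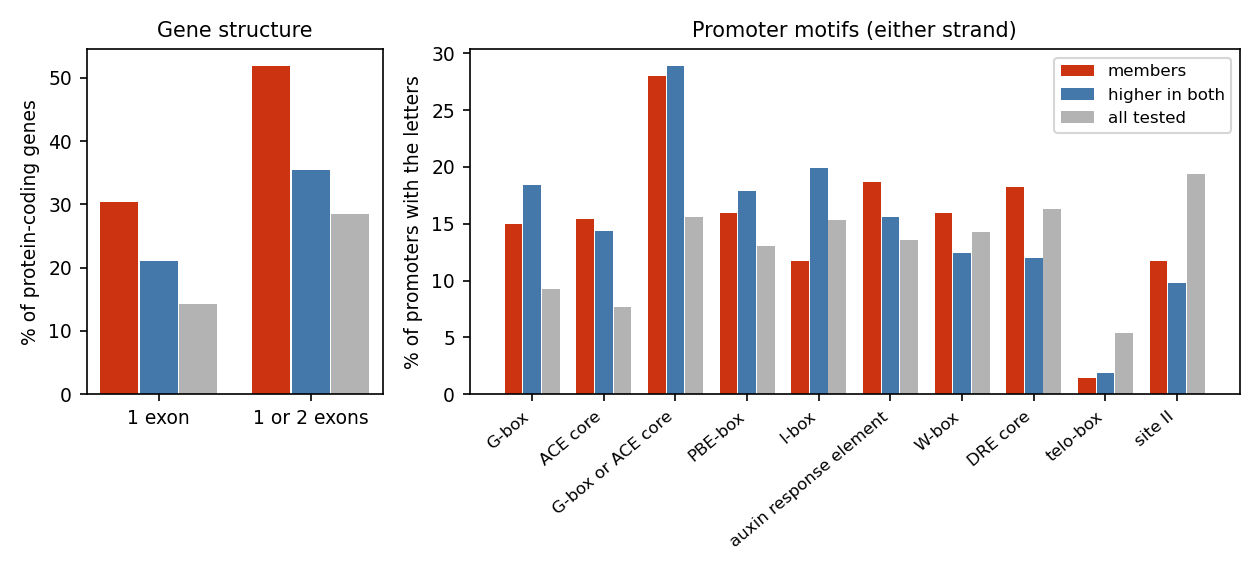
Share of protein-coding genes with few exons (left) and share of promoter windows holding each motif on either strand (right), in percent, for the 215 members, the 428 genes higher in R1h and WLc, and all 17299 tested genes. The bars for 1 exon stand at 30.4%, 21.1% and 14.3%, and those for the G-box or ACE core at 28.0%, 28.9% and 15.6%.

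Of all tested genes, 673 (3.89%) were at least 2-fold higher in R1h than in D and 426 (2.46%) at least 2-fold lower. In WLc 2412 genes (13.9%) were at least 2-fold higher than in D and 1846 (10.7%) at least 2-fold lower. Of the 673, 428 were also higher in WLc, 30 were lower, and the 215 members, 31.9%, lay within 2-fold of D. Among all tested genes 75.4% lay within 2-fold of D in WLc. These shares follow from the thresholds on both differences and are not independent of the choice.

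**Figure D2:**
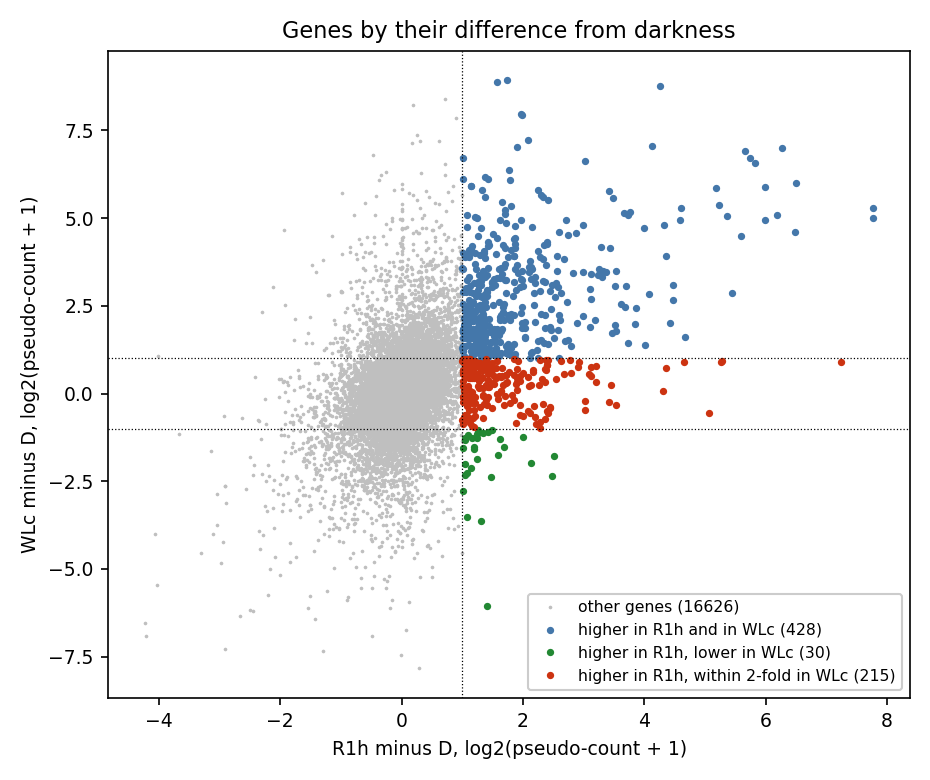
Each point is 1 of the 17299 tested genes, placed by R1h minus D (x axis) and WLc minus D (y axis), both as differences of log2(pseudo-count + 1). Dotted lines mark the thresholds, and the 215 members fill the band between -1 and 1 to the right of the vertical line, with ELIP1 farthest right at 7.24.

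The median level of the members was 79.1 pseudo-counts in D, 212 in R1h and 92.4 in WLc. The median R1h minus D was 1.39 and ranged from 1.00 to 7.24, with 53 members at 2 or more and 17 at 3 or more. The median WLc minus D was 0.41, beside 0.02 for all tested genes. WLc lay above D in 145 members and below it in 70, and in 97 it was within 0.5 of D on the log2 scale. All 215 had a lower mean in WLc than in R1h, but only 138 differed at least 2-fold between these groups. Together the members took up 0.339% of all pseudo-counts in D, 1.16% in R1h and 0.390% in WLc.

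The approximate number of reads behind each mean gives 95% counting intervals, exact conditional binomial ones that cover counting error only. The interval of R1h over D lay above 2 in 136 members. That of WLc over D lay wholly between 0.5 and 2 in 124 members, and it reached 2 or more in 66, so that for these a 2-fold difference in WLc is not excluded by the depth. For 110 members the interval of WLc over D lay above 1, for 41 it lay below 1, and for 64 it held 1. The interval of R1h over WLc lay above 1 in 200 members and held 1 in the others.

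The thresholds passed through a dense part of the data. Just inside the R1h threshold were AT5G45950 (R1h minus D of 1.00), AT3G01660 (1.00) and WER (1.01), and just outside it AT1G48040 (0.997), AT1G75580 (0.997) and GALS3 (0.996). At the upper WLc threshold, AT4G08910 (WLc minus D of 0.996), BLH10 (0.99) and AT1G50290 (0.98) were members, while HHP4 (1.00), DFL2 (1.01) and CLH1 (1.02) were not. At the lower one, AT1G61890 (-0.98), GBF3 (-0.96) and MYB61 (-0.93) were members, while DOGT1 (-1.04), CXE5 (-1.05) and DREB2A (-1.10) were not. At the minimum level, VIM4 was the lowest member with 10.0 in R1h, and AT5G26790 was left out with 9.21, AT1G71520 with 8.12 and DREB1A with 3.89.

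ELIP1 and ELIP2 were the members from 9 tested early light-inducible and photoprotection genes, of which 4 were higher in R1h, against 3.89% higher and 1.24% members over all tested genes. NPQ4 and ABA1 of this list were higher in both lights, and OHP2, LIL3:1, LIL3:2, NPQ1 and PTOX were not higher in R1h by 2-fold. ELIP1 (AT3G22840) and ELIP2 (AT4G14690) encode early light-induced proteins, relatives of the antenna proteins that bind chlorophyll and carotenoids and protect the membrane while pigment is being made. ELIP1 had 31.4 pseudo-counts in D, 4908 in R1h and 59.1 in WLc, a log2 difference of 7.24 between R1h and D, and the counting interval of its ratio, 156, spanned 127 to 193. ELIP2 stood at 158, 6127 and 296, with a log2 difference of 5.27. Both were nearly 2-fold higher in WLc than in D, with WLc minus D of 0.89 and 0.90, but far below R1h. From the 21 tested light-harvesting antenna genes LHCB4.3, a variant of a minor photosystem II antenna, was the single member, with 48.6, 103 and 30.6, whereas 10 others were higher in both R1h and WLc. The matched genes of pigment synthesis gave no member, since of 26 chlorophyll genes 4 and of 15 carotenoid genes 2 were higher in R1h, all of them also in WLc. Symbols that matched no locus or more than 1 were left out of these lists, FC1 of the chlorophyll list among them. By the rule the ferrochelatase gene FC1 (AT5G26030) was a member, with 111 in D, 229 in R1h and 117 in WLc.

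More abundant than ELIP1 and ELIP2 in every group was ABCI21 (AT5G44110), which encodes a soluble ATP-binding cassette protein. It stood at 241 in D, 9447 in R1h and 459 in WLc, a log2 difference of 5.29 between R1h and D. Its relatives were looked up after its values were seen. ABCI20 had a similar course, with 204, 5211 and 626, and missed membership as its WLc minus D was 1.62. ABCI19 was a member at a low level, with 8.24, 18.1 and 9.06.

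**Figure D3:**
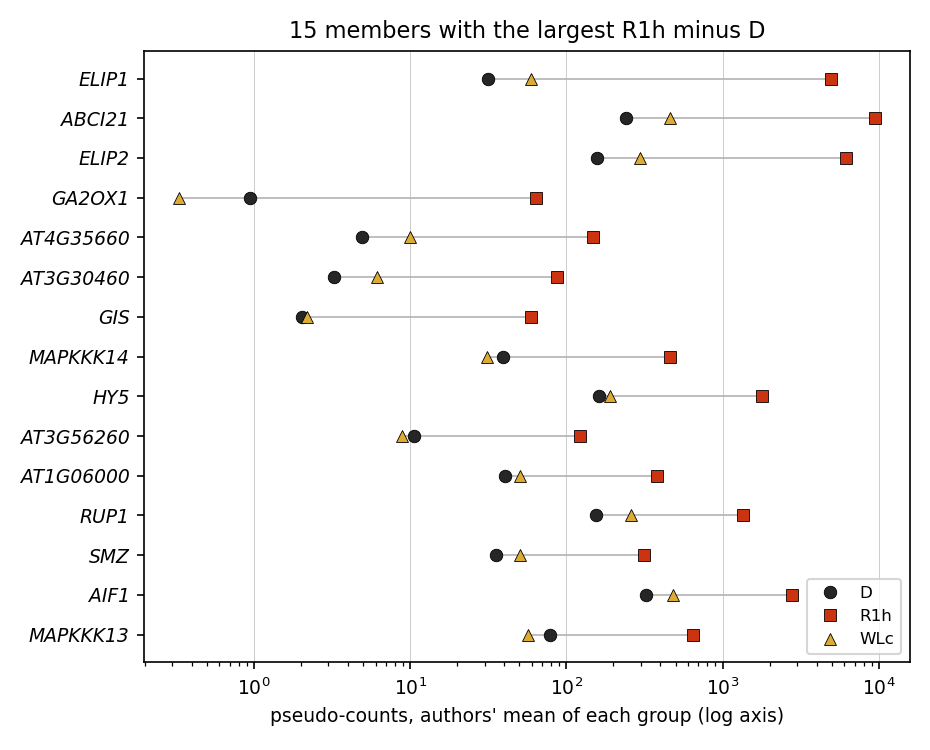
Levels in D (circles), R1h (squares) and WLc (triangles) of the 15 members with the largest R1h minus D among those with at least 50 pseudo-counts in R1h, on a logarithmic axis. Each point is the authors' mean of a group, without error bars as no value per library is given. ELIP1, ABCI21 and ELIP2 stand at 4908, 9447 and 6127 in R1h, and by the rule every gene has WLc within 2-fold of D on the log2(pseudo-count + 1) scale.

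Regulators of light signalling came next. Of 45 tested genes in this list, 24 were higher in R1h, 18 of them also in WLc and 6 as members. The shares over all tested genes against which this and the following counts stand are 3.89% higher and 2.46% lower in R1h, and 1.24% members. HY5 (AT5G11260), the bZIP factor that promotes de-etiolation, had 162 in D, 1784 in R1h and 191 in WLc, a log2 difference of 3.45 between R1h and D. Its closest relative HYH, no member, had 25.9, 649 and 823, so that HYH was high in both lights and HY5 in R1h. RUP1 (AT5G52250), a WD40 protein that returns the UV-B receptor to its inactive state, stood at 154, 1350 and 260. COP1, the ligase subunit that marks HY5 for degradation, had 98.1, 207 and 194. COP1 entered only by the thresholds, for its R1h and WLc levels differed by a ratio of 1.06, whose counting interval (0.951 to 1.19) held 1.

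The other light regulators were zinc finger proteins. BBX29 had 12.9 in D, 74.7 in R1h and 9.41 in WLc, and the counting interval of WLc over D (0.437 to 1.22) held 1. BBX22, a partner of HY5 that promotes de-etiolation, had 109, 324 and 149. GNC, a GATA factor of chloroplast development, had 110, 318 and 132. The second gene of that pair, CGA1, was no member, with 4.69, 360 and 335. From each of the pairs HY5 and HYH, and GNC and CGA1, the gene with the higher level in D was thus the member, an observation on 2 pairs chosen after their values were seen. The D level enters both differences of the rule, so that this pattern is not independent of how members were selected.

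Of 28 tested circadian clock genes, 13 were higher in R1h (3.89% over all genes), 10 of them also in WLc, and 2 were members (1.24% over all genes). PRR5 encodes a pseudo-response regulator that represses morning genes of the clock, and it stood at 46.6 in D, 144 in R1h and 66.6 in WLc. RVE7 (AT1G18330, also EPR1), a MYB-like gene with a daily rhythm, had 183, 685 and 195. Only 49.2% of the 50-base windows at the 3′ end of RVE7 occur in no other gene, and since the authors kept unique reads its level is uncertain. RVE1, RVE2 and RVE8 of the same family were higher in both lights.

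**Figure D4:**
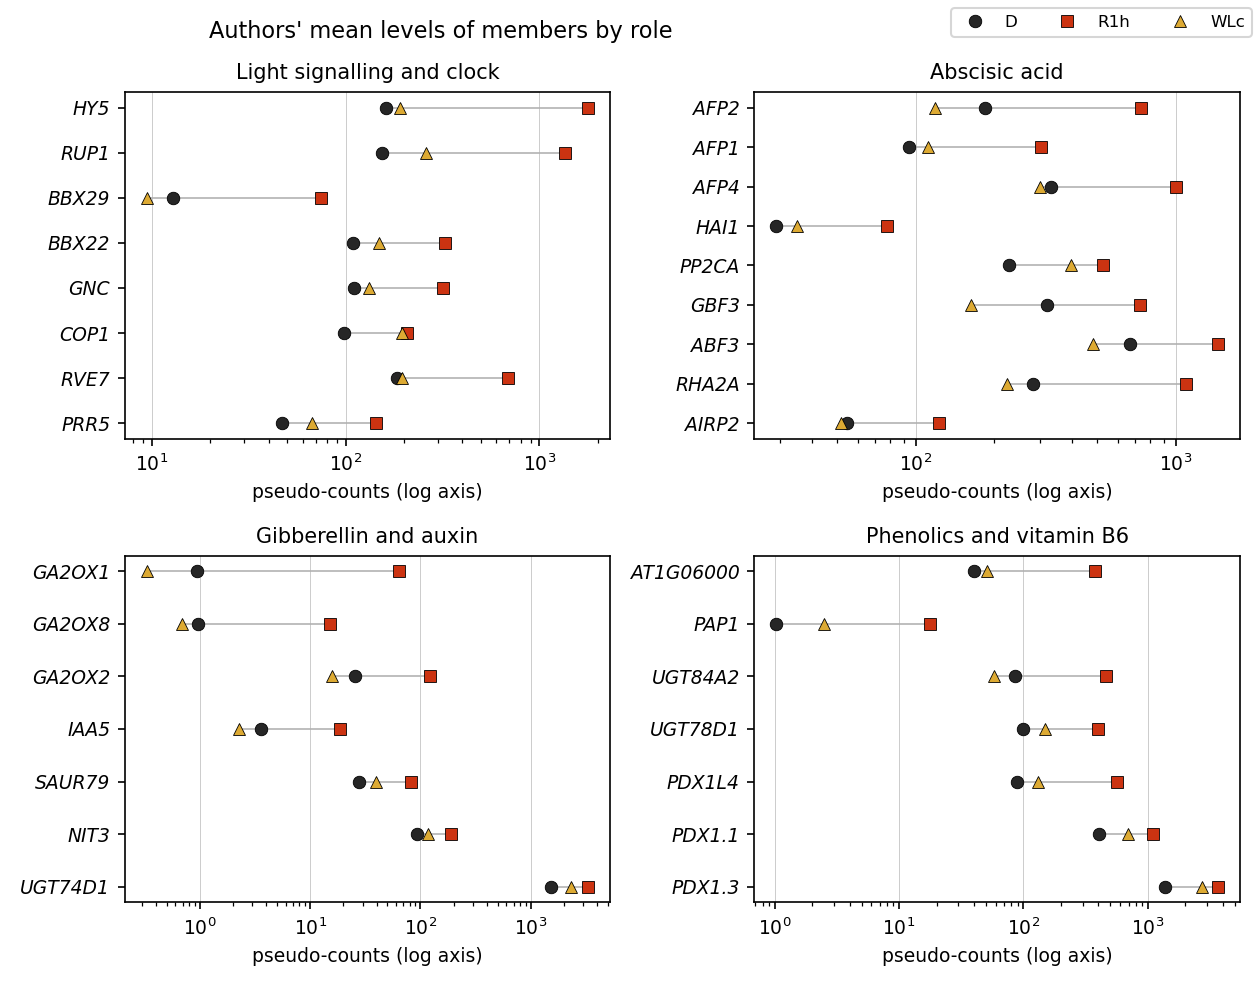
Levels in D (circles), R1h (squares) and WLc (triangles) of 31 members in 4 groups by role, on logarithmic axes, each point the authors' mean of a group. R1h is the highest point in every row. COP1 and PDX1.3 have WLc points next to R1h, and GA2OX1, BBX29, AFP2 and GBF3 are among those with WLc points below D. For GA2OX1 and BBX29 the counting interval of WLc over D held 1.

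Gibberellins promote elongation of the hypocotyl, and gibberellin 2-oxidases inactivate them. Members were 3 of the 4 gibberellin 2-oxidase genes measured, of which GA2OX1 and GA2OX8 passed the minimum of 10 only through R1h. GA2OX1 (AT1G78440) had 0.941 in D, 63.7 in R1h and 0.331 in WLc. About 3 reads stand behind its D level and 1 behind its WLc level, so that the ratio of R1h over D, 67.7, could by counting lie anywhere between 21.6 and 313. GA2OX8 also had about 3 reads in D, with 0.965, 15.04 and 0.685, and its R1h over D of 15.6 had an interval of 4.91 to 76.8. GA2OX2 was better covered, with 25.6, 122 and 15.9, a log2 difference of 2.21. In GA2OX2 the WLc level was below D, and the counting interval of that ratio spanned 0.43 to 0.91. GA2OX6, the most abundant of the family in D, was not higher in R1h, with 813, 409 and 120. Among the genes of gibberellin synthesis, GA20OX1 (21.4, 8.83 and 0.955) and GA20OX2 (22.01, 3.86 and 19.5) were at least 2-fold lower in R1h, and GA3OX1 (85.8, 94.1 and 11.4) was not. Over the 19 tested gibberellin genes 3 were higher in R1h, all of them members, and 4 were lower, where all genes gave 3.89%, 1.24% and 2.46%. With a minimum of 10 in D itself, or with WLc within 0.5 of D on the log2 scale, 1 of the 3 was left.

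Abscisic acid maintains seed dormancy and responses to drought. Of 26 tested genes in the list of its signalling, 6 were higher in R1h, none lower, and 5 were members, against 3.89%, 2.46% and 1.24% over all genes. With WLc within 0.5 of D on the log2 scale 3 of these 5 were left. AFP1 and AFP2 encode proteins that bind the bZIP factor ABI5 and lower its activity. AFP2 had 184 in D, 737 in R1h and 119 in WLc, and AFP1 had 94.6, 304 and 111. Their relative AFP4 (AT3G02140), named after its values were seen, had 333, 1002 and 300, and AFP3 was not higher, with 1529, 2054 and 282. HAI1 (29.1, 77.9 and 34.8) and PP2CA (229, 524 and 394) encode phosphatases that hold back abscisic acid signalling. HAB1 of the same clade was higher in both lights, with 153, 417 and 378, and the other 5 clade members tested were not higher in R1h. ABF3, a bZIP factor that acts in the response to the hormone, stood at 668, 1452 and 479.

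Further members act in the same pathway, and they were named after their values were seen. RHA2A (282, 1092 and 226) and AIRP2 (54.5, 123.5 and 51.6) encode RING ubiquitin ligases that promote abscisic acid responses. EDL3, an F-box gene induced by the hormone, had 2.32, 13.5 and 2.93. HB12 (33.0, 125 and 54.1) encodes a homeodomain factor induced by drought, and GBF3 (319, 727 and 163) a bZIP factor that binds the G-box. Low temperature and dehydration genes gave 6 of 21 higher in R1h and 2 members, CBF2 (12.5, 29.8 and 8.65), an activator of cold responses, and the raffinose synthase gene RS5 (217, 523 and 252). COR413-PM1, which encodes a cold-regulated membrane protein, was the member with the highest R1h level, with 2739, 10247 and 3704.

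The lists of other stresses had no members, but beside the 1.24% over all tested genes they are too short for this to be read as a lack. None of 20 oxidative stress genes was higher in R1h, and 1 was lower. Of 34 touch, wound and defence genes none was higher and 3 were lower. Of 22 heat shock genes HSFA2 and DREB2A were higher and 1 was lower, and none was a member. From outside these lists, the heat shock factor genes HSFA6B (14.3, 82.4 and 10.7) and HSFC1 (102, 211 and 168) were members.

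Auxin genes were represented singly. IAA5, which encodes a repressor of auxin responses that is itself induced by auxin, had 3.604 in D, 18.6 in R1h and 2.26 in WLc, the only member from 26 tested Aux/IAA genes. It passed the minimum of 10 only through R1h, and with that minimum in D itself the list had no member. Of the auxin metabolism list none of 14 genes was higher. Outside the lists, NIT3, a nitrilase gene, had 92.2, 188 and 118, and UGT74D1, whose product links glucose to auxin catabolites, had 1513, 3311 and 2336. AIF1 (AT3G05800), an atypical bHLH gene whose product restrains brassinosteroid responses, stood at 326, 2784 and 482, a log2 difference of 3.09 between R1h and D. None of the 20 brassinosteroid genes in the list was higher in R1h and 4 were lower, and of the 18 ethylene genes none was higher and 8 were lower (2.46% lower over all genes). Cytokinin (3 of 20), jasmonate (1 of 22) and nitrogen genes (1 of 24) were higher in R1h in small numbers, all of them also in WLc.

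Flavonoids and related phenolics absorb ultraviolet light. Of 21 tested flavonoid genes 12 were higher in R1h, 9 of them also in WLc and 2 as members. PAP1 (AT1G56650, MYB75), an activator of anthocyanin genes, rested on about 3 reads in D, with 1.03, 17.65 and 2.51, and counting alone allows an R1h over D, here 17.1, of between 5.70 and 88.0. PAP1 passed the minimum of 10 only through R1h, and with that minimum in D itself 1 of the 2 flavonoid members was left. UGT78D1, which adds rhamnose to flavonols, had 98.5, 398 and 150, whereas UGT78D2 was also high in WLc, with 74.8, 1690 and 643. AT1G06000, the flavonol rhamnosyltransferase of another position, had 40.4, 379 and 50.8, a ratio of 9.39. UGT84A2, which acts on sinapic acid, had 85.9, 463 and 58.1. By annotated product, 7 of 121 UDP-glycosyltransferase genes were members (5.79%, against 1.24% over all genes), UGT73C1 (2.99, 29.1 and 5.74) among them. UGT73C1 passed the minimum of 10 only through R1h.

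Transcription factors of other families were among the members. SMZ (AT3G54990) and TOE1 (AT2G28550, RAP2.7) encode AP2-type repressors of flowering, with 35.2, 313 and 50.2 for SMZ and 116, 614 and 204 for TOE1. Their relative SNZ was higher in both lights (14.8, 154 and 158), and TOE2 and TOE3 were not higher in R1h. GIS (AT3G58070), a zinc finger gene of trichome formation, had 2.02, 59.1 and 2.19, and its D level rests on about 6 reads. Of 16 tested stomatal and epidermal patterning genes, 3 were higher in R1h and 2 were members, against 3.89% and 1.24% over all genes. WER, which sets the fate of hairless epidermal cells, had 34.7, 70.7 and 29.0, and EPF2, a peptide that limits entry into the stomatal lineage, had 10.8, 22.9 and 20.4. The counting interval of R1h over WLc held 1 for EPF2 (0.775 to 1.58).

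By product name, MYB and MYB-like products gave 8 members of 153 (5.23%, against 1.24% over all genes), led by MYB13 (60.4, 378 and 115), AT3G16350 (84.2, 448 and 148) and AT1G70000 (147, 710 and 173). The match took in Homeodomain-like products such as that of KAN2 and left out PAP1 (MYB75), so that the share is not exactly that of the MYB family. Products with homeobox in their name gave 3 of 59. This match of names left out the members BLH10 and BLH1, whose products are named BEL1-like homeodomain. KAN2 (12.1, 35.6 and 19.8) and AS2 (44.1, 96.8 and 40.7), regulators of leaf polarity, were members, and no list of genes with that role was examined. KNAT3 (159, 324 and 314) was the member with the least difference between R1h and WLc. Of 41 tested WRKY and 53 NAC genes none was a member, in sets too small to be told apart from the 1.24% over all genes. The ribosome biogenesis and helicase products, 461 genes, also held none, with 2 higher in R1h.

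Protein kinases gave 9 members of 915 (0.984%), near the 1.24% over all genes. Of these, 3 are related MAP kinase kinase kinases, and MAPKKK14 and MAPKKK13 had the largest R1h minus D of the 9. MAPKKK14 had 39.2 in D, 463 in R1h and 31.0 in WLc, a log2 difference of 3.53. MAPKKK13 had 79.1, 649 and 57.1, and MAPKKK18, induced by abscisic acid, had 5.27, 15.4 and 4.49. MAPKKK18 passed the minimum of 10 only through R1h, and its relative MAPKKK20 (8.53, 9.18 and 4.21) did not pass it. MAPKKK15 and MAPKKK16 were not higher in R1h, with 18.7 and 19.7 pseudo-counts for MAPKKK15 in D and R1h and 18.6 and 13.0 for MAPKKK16. The counting interval of WLc over D lay below 1 for MAPKKK13 (0.590 to 0.881) and held 1 for MAPKKK14 (0.599 to 1.05) and MAPKKK18 (0.390 to 1.89).

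Ubiquitin ligases and F-box proteins gave 14 of 704 (1.99%, against 1.24% over all genes). AT3G30460 (3.26, 86.8 and 6.10) and AT5G47610 (310, 1514 and 608) encode RING proteins of no named role, and RHA1B was abundant, with 1248, 4331 and 1041. Both F-box genes of the AUF name, which were named for being induced by auxin, were members, AUF1 with 251, 635 and 240 and AUF2 with 8.17, 22.6 and 15.6. For AUF2 the counting interval of R1h over WLc (0.975 to 2.12) held 1. AT2G16365, another F-box gene, had 47.1, 158 and 57.9.

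Vitamin B6 is a cofactor that also quenches reactive oxygen, and its ring is made by proteins of the PDX1 family together with PDX2. The family was looked up after its values were seen. PDX1.3 had 1385 in D, 3642 in R1h and 2721 in WLc, and PDX1.1 had 407, 1108 and 687. PDX1L4, a PDX1-like gene with 66.1% unique 3′-end windows, stood at 88.0, 567 and 130. PDX1.2, which has no catalytic activity of its own, was not higher (193, 195 and 118), nor was PDX2 (96.0, 114 and 57.1). PDX1L4 and PDX1.1 lie near each other on chromosome 2 with 1 gene between them.

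Enzymes of sugar and wall metabolism differed in their WLc level. The vacuolar invertase gene VI2 (AT1G12240) had 342, 1830 and 660, and the sucrose phosphate synthase gene SPS2F had 65.1, 383 and 87.0. BAM1, a plastid beta-amylase of starch breakdown, had 605, 1398 and 501. XTH32, an enzyme that cuts and joins xyloglucan, had 108, 564 and 176, and EXPA10, a wall-loosening expansin, had 86.2, 260 and 85.3. These were the members from 42 tested genes of both wall families. CSLG3, of a cellulose synthase-like family, had 29.7, 212 and 44.9. SAHH2, which removes the product of methylation reactions, had 1566, 5641 and 1387, the glutathione S-transferase gene GSTU5 had 1622, 3644 and 1362, and the efflux carrier gene AT1G61890 had 688, 3331 and 348, the largest fall below D in WLc of any member (WLc minus D of -0.98).

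The RefSeq symbol is only the locus code for 100 of the 215 members (46.5%), against 53.9% of tested genes. Product names without a described function covered 33 members (15.3%), against 9.17% of tested genes. AT4G35660 had 4.95, 149 and 10.0, an R1h over D whose counting interval spanned 17.9 to 53.8. Its WLc level before rounding was just under 10, so that it passed the minimum only through R1h. AT3G56260 had 10.5, 122 and 8.82, and AT1G29640 had 48.4, 254 and 29.0. From the largest R1h minus WLc, the order was ELIP1 (6.35), GA2OX1 (5.60), ELIP2 (4.37), ABCI21 (4.36) and GIS (4.24).

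PIF direct targets, defined in earlier work on other libraries, were split by direction, and their shares of members stand beside 1.24% over all tested genes. Of 192 tested genes that PIFs induce in the dark, 38 were lower in R1h, 10 were higher and 7 (3.65%) were members: ELIP2, BBX29, AT3G24840, HAI1, MYB61, AT3G24750 and AT1G19970. Of 108 tested genes that PIFs repress, 18 were higher in R1h, but 15 of these were also higher in WLc and 3 (2.78%) were members, PRR5, HB12 and EXO70H4 (1.37, 11.2 and 1.96). EXO70H4 passed the minimum of 10 only through R1h. Over all tested genes, 428 of the 673 higher in R1h (63.6%) were also higher in WLc. The other 205 members are in neither list.

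Some members are neighbours in the genome. Among protein-coding genes, 10 pairs of successive members had at most 1 gene between them. How many such pairs other gene sets of this size hold was not computed, so the count is a description only. HSFA6B, ELIP1 and AT3G22845 (805, 1695 and 624) follow each other on chromosome 3, with 3345 and 1568 bases between the gene models. HBP1 (259, 1979 and 481), which encodes a haem-binding protein, lies 278 bases from AT1G17090 (9.54, 20.8 and 15.9) on the opposite strand. The share of members by chromosome ran from 0.845% of tested genes on chromosome 4 to 1.64% on chromosome 3, around the 1.24% over all tested genes.

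The 3 columns summed to 11.4 M, 11.99 M and 12.5 M pseudo-counts in D, R1h and WLc. Marker genes matched the labels, with PORA at 16982, 20770 and 73.4 and LHCB1.1 at 301, 5767 and 131109 in these groups. ICL, an enzyme that uses seed oil, stood at 237854, 199218 and 5087, and the seed storage gene CRA1 at 958, 1659 and 97.1. CASP1 of the root endodermis had 3699, 2852 and 952, and TMM of the stomatal lineage 103, 99.1 and 135. Levels of organ and reserve markers thus differed between WLc and the dark-germinated groups, and their part in the WLc levels of the members was not tested. By 50-base windows in the last 500 bases of the transcript, 204 members were fully distinct from every other gene and 3 (RVE7, PDX1L4 and VIM4) had under 80% distinct windows. For 5 members, BLH10 and AT3G22845 among them, another annotated gene overlaps on the same strand, and their levels are uncertain.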

How the data were processed

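Steady state mRNA was measured by 3′-end RNA-seq in 9 libraries, 3 in each of 3 groups taken from the sample titles and treatment labels. Per the study's methods, 50-base reads were aligned with Bowtie to TAIR9 transcripts, and unique reads on the coding strand in the last 500 bases were counted. The version of either tool is not given in the sources used here. As unit, the deposited table has a normalized signal, the pseudo-counts that edgeR gave the authors after bringing libraries to one size, with 1 mean per group and no value per library. No test or SD could therefore be had.

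Members and lists were chosen with earlier results of these data known. Differences are on the log2(value + 1) scale, which understates low genes, and called means at least 2-fold. Reads behind a mean were its value divided by the mean of the lowest levels above 0, about 0.331 in D, 0.330 in R1h and 0.327 in WLc. All values under 1.2 lay within 0.2 reads of a whole number. Intervals (95%, Clopper-Pearson) cover counting error only. Values below 1e-06 were read as listed at 0. The rule and the intervals were run on simulated counts with counting error only, WLc set to the level of D and rises well above 2-fold. That run checks the code and cannot show how the rule performs near its thresholds or with variation between libraries.

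Lists (26) were matched by RefSeq symbol or synonym, and 28 members stand in a list. Symbols that matched no locus or more than 1 were left out. Families (26) were matched by RefSeq product name, and 14 motifs in windows of 300 bases. Symbols and sequences come from RefSeq TAIR10.1, in which 17628 of 17680 genes were found. Genes named are the 15 members with the largest R1h minus D at an R1h of at least 50, the 10 with the highest R1h, members in a list or among the PIF targets, up to 4 per family with R1h of at least 20, 3 genes on each side of each threshold and the 5 with the largest R1h minus WLc. Not all of them are named, and relatives of members, pathway genes outside the lists and other genes were added after their values were seen. Python 3.11.15, pandas 2.3.3, numpy 2.4.6, scipy 1.17.1 and matplotlib 3.10.9 were used. Alternatives changed the pseudocount, the minimum, the scaling and the thresholds.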

Additional observations from a re-analysis of the deposited data

How the results depend on the processing

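No paired analysis was possible because the table holds 1 mean per group, and for the same reason leaving out each replicate could not be run. Of 10 alternatives, 9 were planned and 1, a minimum of 10 in D itself, was added after seeing the data. The 215 members became 217 and 199 with pseudocounts of 0.5 and 5, 219 with no minimum, 174 with a minimum of 50, 201 with equal column totals, 207 after quantile normalization and 184 with a value of at least 10 in D. Of the reported members 211, 184, 215, 174, 187, 182 and 184 were kept. Equal column totals lowered the median WLc minus D of all genes to -0.11. The 15 members with the largest R1h minus D were all kept under each of these except the last, which lost GA2OX1, AT4G35660, AT3G30460 and GIS.

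Stricter rules shorten the list by their own construction. With the whole counting interval of R1h over D above 2-fold, 136 members and 428 R1h-higher genes were left, in place of 673, and the median R1h minus D of the members was 1.83. With WLc within 0.5 of D on the log2 scale, 97 members were left and their median WLc minus D was 0.080. ELIP1, ELIP2, ABCI21, RUP1 and 5 others of the 15 were lost, and HY5, GIS, MAPKKK13, MAPKKK14, AT3G56260 and AT1G06000 were kept. With R1h also at least 2-fold over WLc, 138 members were left, with a median R1h minus D of 1.76, and their median WLc minus D turned to -0.019. For the 11 lists with a member, 25 of 110 recomputed counts moved by over 1.5 times. With WLc within 0.5 of D, the abscisic acid list went from 5 to 3 members, gibberellin from 3 to 1, clock and wall enzymes from 2 to 1, photoprotection and flavonoids from 2 to 0, and antenna genes from 1 to 0. With at least 10 in D, gibberellin fell to 1, flavonoids to 1 and Aux/IAA to 0. The stomatal list fell from 2 to 0 or 1 under 7 alternatives, and cold and dehydration genes ranged from 1 to 4. The depth limits low members: 10 had under 10 reads in D over the libraries of the group.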
